A study of Sus scrofa with 35 samples.

Results

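The longissimus dorsi, a back muscle, was compared between Creole and Large White pigs that had not been exposed to heat. Arrays were taken by their titles alone, 6 for Creole and 6 for Large White of the 35 arrays in the series, and each array carried muscle RNA of 1 castrated male growing pig kept at thermoneutrality (TN), labelled 24 °C. All 40649 probes that the authors kept as expressed entered the comparison. The other 23 arrays were 6 of the F1 cross of both breeds at TN, and 6 Creole, 6 Large White and 5 F1 after a heat challenge (HS), labelled 30 °C although the study methods give a higher challenge temperature. The labels give no age. Per the study methods, each breed was supplied by 3 sets of 4 littermates, so pigs of 1 breed shared litters, and HS pigs were littermates of TN pigs. Pens held pigs of a single breed, so pen and breed cannot be told apart. Litter, pen and slaughter day are not in the labels, and every p-value treats the pigs as independent.

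Large White is a white commercial breed selected for fast, lean growth, whereas Creole pigs are a local Caribbean population, coloured, smaller, slower growing and fatter. Back muscle of the pig is made mostly of fast glycolytic fibres with fewer slow oxidative ones, embedded in collagen sheaths with vessels, nerves, fat cells and resident leukocytes. Pig breeds are known to differ at a few large-effect loci, among them KIT, whose rearranged alleles give the white coat, and IGF2, whose regulatory variant raises transcript in muscle after birth.

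Each probe is a 60-base oligonucleotide read in 1 colour, and its level is a quantile-normalised log2 intensity, so a difference of 1 is a 2-fold change. Levels of different probes are not comparable with each other. All 15 measured skeletal muscle fibre markers were well above the array background on all 12 arrays, and their mean ran from 17.85 to 17.95 in Creole and from 17.75 to 17.97 in Large White. The unnormalised 75th percentile, the share of probes well above background, local background and spike-in level overlapped between the breeds, and exact permutation tests of these 4 measures (two-sided) gave an adjusted p of 0.818 each. Large White replicate 3 was dim, with 58.4% of probes well above background, against 67.4% on the next Large White array. The arrays lay on 5 slides, 4 of which held both breeds. In bulk muscle, fewer cells of a type and less RNA per cell cannot be told apart.

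Between Creole and Large White at TN, 402 probes (0.989% of those tested) passed limma at an adjusted p of 0.05, of which 236 (0.581%) were higher and 166 (0.408%) lower in Creole. Of the called probes 179 carried a gene symbol and stood for 140 genes, 71 higher and 69 lower in Creole. The median difference was 0.66 among higher and -0.70 among lower probes, and the extremes were 3.66 and -2.63. A total of 35 probes were above 1 and 37 below -1. The 6 Creole and 6 Large White values did not overlap for 215 of the 402, whereas this held for 1.11% of all probes. With the fit restricted to the 12 arrays, 115 probes were called, 103 of them shared with the 402. Leaving out 1 array moved the count most without Creole replicate 1 (191) and Large White replicates 1, 2, 4 and 6 (201, 264, 252 and 243), while 574 were called without the dim Large White replicate 3. The share of higher calls, 58.7%, was 65.9% under scaling to the 75th percentile and 50.4% under median scaling, so the balance of both directions depended on the scaling.

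Genes lower in Creole were led by OAZ3, KIT and IGF2. KIT encodes a receptor tyrosine kinase for stem cell factor, active in melanocytes, mast cells and blood precursors. It read 7.29, 7.73 and 8.15 (lowest, median and highest array) in Creole and 8.88, 9.61 and 11.04 in Large White. All Creole arrays were below all Large White arrays, and the difference was -2.01 (SE 0.26, adjusted p = 5.33e-05), or 4.01-fold lower. Within the 4 slides that held both breeds it ran from -3.63 to -1.36. All 5 probes named for KIT, of 4 different sequences, were called in the same direction, between -2.03 and -0.88. The pair at the weak end was not well above background on any Creole array, so those differences are bounds, at least 1.83-fold lower and at least 1.94-fold lower. The probe with the lower bound is shown as an example of the coding sequence read, in lower case throughout since no part of it differs from the partner probe over their 57 shared bases.
KIT A_72_P180731: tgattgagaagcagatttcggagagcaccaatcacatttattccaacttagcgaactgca
The F1 TN pigs read 8.47, 8.54 and 9.40 on the KIT probe of highest mean, above all Creole TN arrays. Only the highest reached the Large White range, and the others read 8.74 or less. The F1 mean was 8.70, against 7.735 in Creole and 9.74 in Large White. At HS the F1 pigs read 7.98 to 8.8, where Creole read 7.50 to 8.40 and Large White 9.19 to 10.03.

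**Figure D1:**
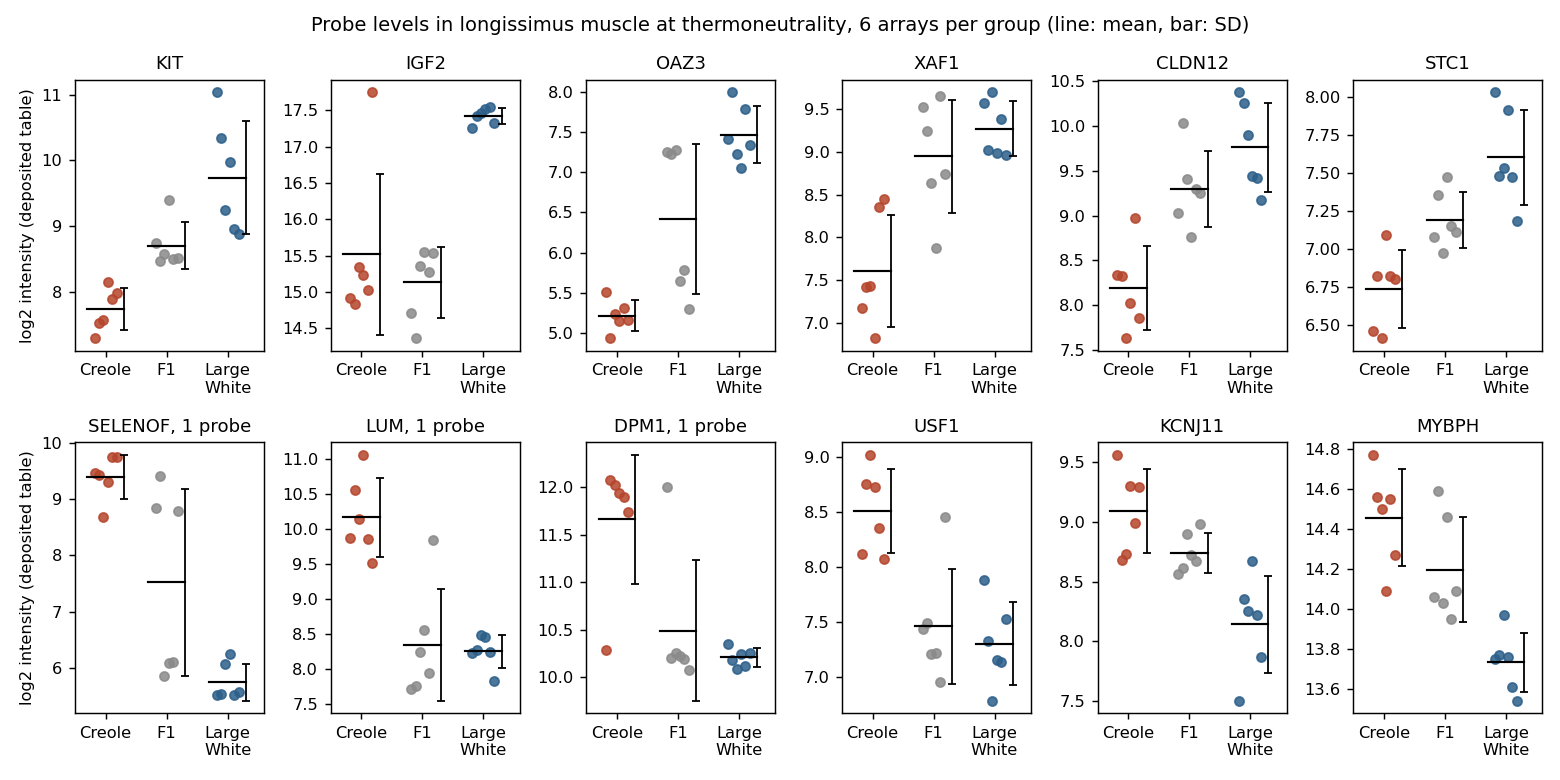
Log2 level (y axis) of single probes on each TN array of Creole, F1 and Large White (x axis, 6 points a group), with the group mean as a line and the SD as a bar. KIT and OAZ3 do not overlap between Creole and Large White, while 1 Creole array sits with the Large White arrays for IGF2, at 17.75.

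IGF2, a fetal and muscle growth factor expressed from the paternal allele, separated into levels rather than spreading. The probe of highest mean read 17.25, 17.44 and 17.55 in Large White. In Creole 5 arrays read 14.83, 14.92, 15.03, 15.23 and 15.34, and replicate 6 read 17.75, above every Large White array. The difference was -1.90 (SE 0.45, adjusted p = 0.0324), and without Creole replicate 6 it was -2.35 (adjusted p = 0.00228). Without any 1 of 10 other arrays, all but Large White replicate 3, the call was lost (adjusted p up to 0.0803), as it was with slide as a block (adjusted p = 0.081) and with 12 arrays (adjusted p = 0.0711). All 9 IGF2 probes, of 8 sequences, were lower in Creole, by -2.09 to -1.27, and 2 were called. The same split showed in pigs outside the comparison. The 6 F1 TN arrays read 14.36 to 15.55, and 4 Creole HS arrays read 14.98 to 15.48 while the other 2 read 17.46 and 17.56. All 6 Large White HS arrays read 17.15 to 17.87. The F1 TN arrays thus lay in the range of the 5 lower Creole arrays or just beside it, and of the F1 HS arrays 4 read 14.90 to 15.34 and 1 read 17.68. A probe that reads the precursor's coding sequence is shown in lower case because IGF2 is among the genes with the widest differences.
IGF2 A_72_P544532: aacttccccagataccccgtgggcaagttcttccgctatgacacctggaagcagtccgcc

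OAZ3, an inhibitor of ornithine decarboxylase known from spermatids, was the gene with the largest negative difference. It read 4.93, 5.20 and 5.51 in Creole and 7.05, 7.38 and 8.0 in Large White, with no overlap and a difference of -2.26 (SE 0.39, adjusted p = 0.00206). Of the Creole arrays 1 of 6 had this spot well above background. The F1 TN arrays split on it, with some at 5.30 to 5.78 and the others at 7.23 to 7.28. A second OAZ3 probe of the same sequence, printed next, was not well above background on any Creole array, which makes its difference a bound of at least 4.86-fold lower (adjusted p = 0.00225).
OAZ3 A_72_P437459: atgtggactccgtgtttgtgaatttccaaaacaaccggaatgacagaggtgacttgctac
The third OAZ3 probe, of another sequence, differed by -0.60 (adjusted p = 0.0456) and lost its call in 9 of 12 fits that left out 1 array, all 6 Creole replicates and Large White replicates 2, 5 and 6 among them (adjusted p up to 0.115).

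Several other genes were lower in Creole without overlap between the breeds. XAF1, an interferon-inducible antagonist of the apoptosis inhibitor XIAP, read 6.82, 7.42 and 8.45 in Creole against 8.96, 9.21 and 9.70 in Large White (difference -1.66, SE 0.31, adjusted p = 0.00459, 1 of 2 probes called). CLDN12, a claudin of cell junctions, read 7.63, 8.17 and 8.97 against 9.17, 9.67 and 10.38 (difference -1.57, SE 0.30, adjusted p = 0.00506), and all 3 of its probes, of 2 sequences, were called. The decapping scavenger enzyme DCPS differed by -1.44 (SE 0.29, adjusted p = 0.0101) on its called probe and by 0.35, the opposite way, on the other. PARVB, an adaptor between integrins and actin, differed by -1.23 (SE 0.21, adjusted p = 0.00135). Stanniocalcin STC1, a secreted glycoprotein linked to calcium and phosphate handling, read 6.41, 6.81 and 7.09 in Creole and 7.18, 7.50 and 8.03 in Large White. The breeds just did not touch, the difference was -0.87 (SE 0.13, adjusted p = 0.000551), and 3 of 3 probes, of 2 sequences, were called. STC1 lies outside the rule for named genes and was chosen after its values were seen, because every probe was called.

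Further genes lower in Creole were weaker or rested on fewer probes. KDR, the main VEGF receptor of endothelium, differed by -1.04 (adjusted p = 0.0170) on 1 of 3 probes, and the call was lost without Creole replicate 1 (adjusted p = 0.0607). IGFBP6, which binds IGF2 with preference, read 13.12, 13.98 and 14.23 in Creole and 14.30, 14.61 and 14.78 in Large White. That probe differed by -0.72 (SE 0.15, adjusted p = 0.0149) without overlap and lost its call without Creole replicate 1 (adjusted p = 0.0522) and in the fit of 12 arrays (adjusted p = 0.125), and 3 of 4 probes were called. TPM3, the slow-fibre tropomyosin, differed by -0.71 (adjusted p = 0.0149, 0.0870 with 12 arrays, 3 of 8 probes), with 15.91 to 16.85 in Creole overlapping 16.61 to 17.27 in Large White. The uptake transporter SLCO2B1 (-1.04, adjusted p = 0.00905), the retinol ester and lipid hydrolase PNPLA4 (-1.14, adjusted p = 0.0101) and the small GTPase RASL10B (-1.13, adjusted p = 0.00167) kept their calls when each array was left out. SLCO2B1 and PNPLA4 lost theirs in the fit of 12 arrays (adjusted p = 0.0701 and 0.0730), and SLCO2B1 and RASL10B under spike-in scaling (adjusted p = 0.0594 and 0.0591). The cAMP phosphodiesterase PDE4B (-1.16), heme-binding HEBP2 (-1.07), ghrelin GHRL (-0.97) and glutaredoxin GLRX (-0.96) lost theirs in 5, 4, 3 and 10 of 12 such fits, with adjusted p up to 0.0871, 0.0787, 0.0685 and 0.118. Creole replicate 1 was among the arrays whose absence ended each of these 4 calls. PDE4B was called on 2 of 5 probes, GHRL on its only probe and HEBP2 on 1 of 2, the other at -0.34. GLRX was called on 1 of 5 probes, and 1 probe had the opposite sign (0.05).

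Genes higher in Creole included regulators of transcription, channels and metabolic enzymes. USF1, a basic helix-loop-helix factor that drives genes of lipid and glucose metabolism, read 8.07, 8.54 and 9.02 in Creole and 6.78, 7.24 and 7.88 in Large White. The groups did not overlap, the difference was 1.21 (SE 0.22, adjusted p = 0.00267), and 4 of 5 probes were called, these 4 being of 3 sequences. KCNJ11, the pore of the ATP-sensitive potassium channel that couples membrane excitability to energy state, read 8.68, 9.14 and 9.56 in Creole and 7.50, 8.24 and 8.67 in Large White. The groups came within 0.01 of each other without overlap, the difference was 0.95 (adjusted p = 0.00729), and both probes were called. In the fit of 12 arrays KCNJ11 was not called (adjusted p = 0.0726). P2RX5, a purinergic receptor channel of muscle, differed by 1.03 (SE 0.16, adjusted p = 0.000716) with no overlap. HSD11B1, which regenerates active cortisol, differed by 0.93 (adjusted p = 0.0198), and its 7 probes all read higher in Creole, by 0.70 to 1.34, with 2 called. This call was lost without Creole replicate 1 and without Large White replicate 1 (adjusted p up to 0.0683) and in the fit of 12 arrays (adjusted p = 0.0782).

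Among muscle proteins, MYBPH, a myosin-binding protein of the sarcomere, read 14.09, 14.53 and 14.77 in Creole and 13.54, 13.76 and 13.97 in Large White. The breeds did not overlap and differed by 0.72 (adjusted p = 0.0170). All 3 of its probes, of 2 sequences, were called, and without Creole replicate 1 the call was lost (adjusted p = 0.0567). MYBPH lies outside the rule for named genes and was chosen after its values were seen, since all its probes were called. FBXO32, the ubiquitin ligase also known as atrogin-1, read 10.80, 11.04 and 11.24 in Creole and 9.38, 10.14 and 10.29 in Large White. The breeds did not overlap, yet the difference of 1.04 (SE 0.27, adjusted p = 0.0459) was called on 1 of 5 probes, whose values ran from 0.86 to 1.04, and the call was lost in 11 of 12 fits without 1 array, all but that without Large White replicate 3 (adjusted p up to 0.109), and with slide as a block (adjusted p = 0.102). The carnitine and polyamine transporter SLC22A16 (0.98, adjusted p = 0.0420) lost its call in 10 (adjusted p up to 0.128). Carbonic anhydrase CA3, abundant in slow fibres, was higher by 0.97 (adjusted p = 0.00568) on 1 of 20 probes only, and its probe of highest mean differed by 0.12. The myostatin gene MSTN (0.55, adjusted p = 0.231), the calcium release channel RYR1 (0.04), slow myosin MYH7 (-0.26, adjusted p = 0.266), fast myosin MYH4 (-0.04, with 7 of 9 probes of the opposite sign) and IGF1 (-0.11) did not pass.

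The histone demethylase PHF2 (1.40, adjusted p = 0.00237), CCDC25 (1.22, adjusted p = 0.0101) and the dual-specificity phosphatase DUSP12 (1.06, adjusted p = 0.00264) were also higher in Creole. These probes kept their calls in every fit run. PHF2 had 1 probe, on which Creole (9.345 to 10.23) overlapped Large White (8.24 to 9.42). CCDC25 and DUSP12 were each called on 1 of 2 probes, and their other probes differed by 0.12 and 0.78. NPSR1, the neuropeptide S receptor, was not well above background on any Large White array and on 5 of 6 Creole arrays it was. Its called probe was at least 1.38-fold higher in Creole (adjusted p = 0.0388, up to 0.0891 without 1 array and lost in 9 of 12), and the second, at least 3.04-fold higher, was not called (adjusted p = 0.0516). The AMPK subunit PRKAG3 was called on 1 of 3 probes (0.70, adjusted p = 0.0118), but not on the probe of highest mean (0.53, adjusted p = 0.383). SOCS3, a feedback inhibitor of cytokine signalling, read 7.89, 8.45 and 10.50 in Creole and 8.83, 10.72 and 12.56 in Large White. That difference of -2.01 was as large as that of KIT but overlapped and was not called (adjusted p = 0.0986). PDK4, which blocks pyruvate dehydrogenase, ranged from 10.23 to 14.98 in Creole and from 10.82 to 16.04 in Large White. Its difference was not called (-0.46, adjusted p = 0.883). MC1R (0.00), ADIPOQ (-0.14) and FASN (-0.05) were not called either. Cytochrome c, CYCS, differed by -0.40 (adjusted p = 0.444) on the probe of highest mean, but 12 of its 14 probes had the opposite sign, up to 2.88, and none was called. The mitochondrial superoxide dismutase SOD2 differed by -0.34 (adjusted p = 0.272) on that probe, 5 of its 9 probes had the opposite sign, and their range from -1.96 to 0.18 held no call.

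For several genes the difference depended on which probe was read. Of the 140 genes with a called probe, 108 had probes of at least 2 sequences in the table, and all probes were called for 7 of these 108, CLDN12, KCNJ11, KIT, MAP3K3, MYBPH, OAZ3 and STC1. At least 2 called sequences were found for 24 genes, and 26 genes had probes of both signs, but no gene had called probes of both signs. SELENOF, a selenoprotein of the endoplasmic reticulum, held the largest difference of all probes. It read 8.69, 9.45 and 9.76 in Creole and 5.51, 5.55 and 6.25 in Large White. Creole exceeded Large White by 3.66 (SE 0.58, adjusted p = 0.000653) with no overlap. The other 5 SELENOF probes differed by -0.13 to -0.03 and none was called. The F1 TN arrays fell apart on this probe, with 5.85, 6.09 and 6.11 on 3 of them and 8.80, 8.84 and 9.42 on the other 3, which matches neither breed as a whole. The called probe overlaps 2 of the others, and the shared bases are shown with the differing ones in capitals.
SELENOF CUST_56, last 30 bases: tctACcattgatcagtctcttaccgAgagg
SELENOF A_72_P562884, first 30 bases: tctTCcattgatcagtctcttaccgTgagg
SELENOF A_72_P629475, first 27 bases: TTcattgatcagtctcttaccgTgagg
Counted from 1 at the 5′ end of the called probe, it differs from the second by A34T and A56T, and from the third by A34T, C35T and A56T. The name prefix of the called probe, CUST, is shared by none of the other 5. Whether these bases vary between the breeds was not tested.

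**Figure D2:**
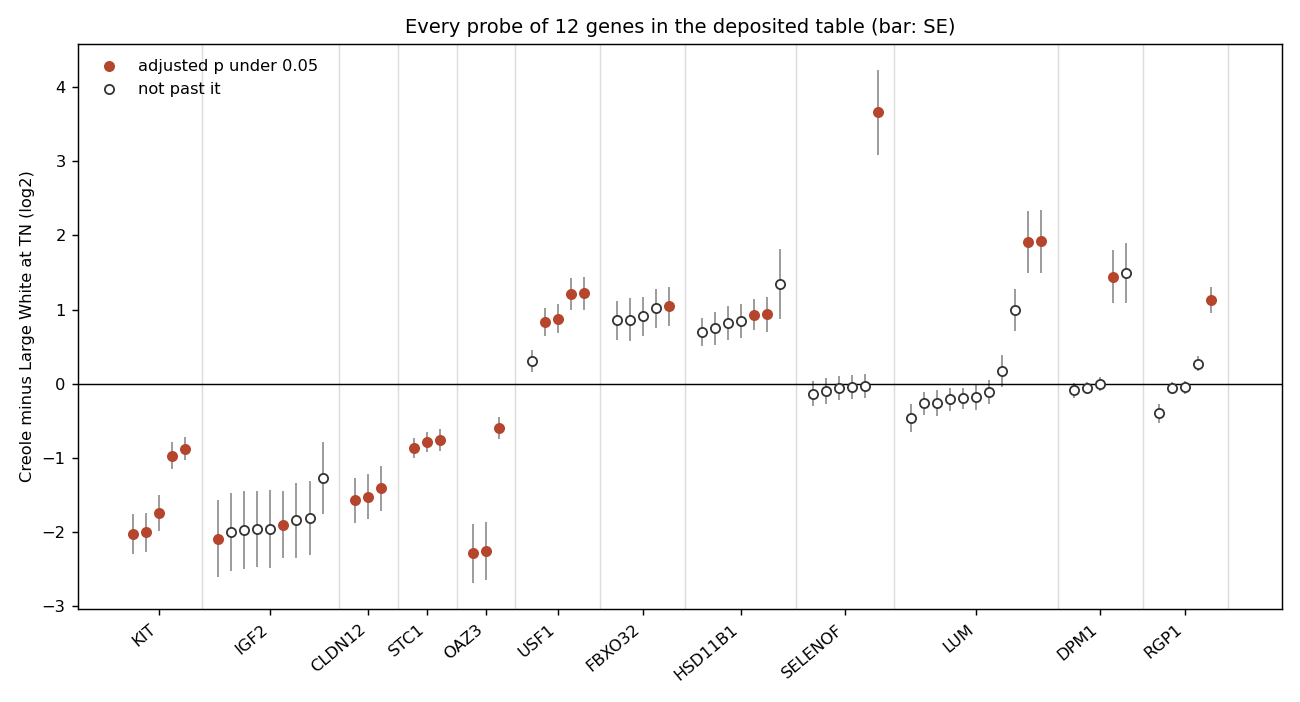
Creole minus Large White at TN (y axis, log2) for every probe of 12 genes (x axis), with the SE as a bar and called probes marked. All KIT probes lie below 0, whereas SELENOF has 1 probe at 3.66 and 5 near 0.

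LUM, the collagen-binding proteoglycan lumican, was called on 2 of 11 probes. They read 9.51, 10.004 and 11.06 in Creole and 7.83, 8.26 and 8.49 in Large White on the more strongly called of them, with Creole higher by 1.91 (SE 0.41, adjusted p = 0.0164) and no overlap. With slide as a block this was 1.56 and not called (adjusted p = 0.0729). The other probe differed by 1.92 (adjusted p = 0.0177). The rest were between -0.46 and 1.00, and the probe of highest mean was -0.18 (adjusted p = 0.718). A probe that shares 35 identical bases with each called probe differed by -0.11 (adjusted p = 0.834). Another, which shares 55 identical bases with the more strongly called probe, differed by 1.00 (adjusted p = 0.0804), the same way as the called probes. The called pair differ from each other by T53A, A56T and T57A, counted from 1 at the 5′ end of the first, shown in capitals.
LUM A_72_P624127, last 30 bases: ccaaacaatgctttatttgtaaTttATtgc
LUM A_72_P665036, last 30 bases: ccaaacaatgctttatttgtaaAttTAtgc

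DPM1, the catalytic subunit of dolichol-phosphate mannose synthase, showed the same contrast between probes. On the called probe 5 Creole arrays read 11.74 to 12.07, Creole replicate 1 read 10.29, and Large White read 10.09 to 10.35. The difference was 1.44 (SE 0.36, adjusted p = 0.0424), lost in the 11 fits without 1 array other than Creole replicate 1 (adjusted p up to 0.0843) and with slide as a block (adjusted p = 0.110). A second probe, which shares the 26 bases in capitals, differed by 1.49 (adjusted p = 0.0590), and the other 3, the last of which is shown in full, by -0.09 to 0.00.
DPM1 A_72_P634594: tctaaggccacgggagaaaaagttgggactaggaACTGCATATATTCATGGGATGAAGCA
DPM1 O7965: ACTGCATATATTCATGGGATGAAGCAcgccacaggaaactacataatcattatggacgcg
DPM1 A_72_P655584: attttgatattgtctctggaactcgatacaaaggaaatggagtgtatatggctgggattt

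Overlap of probe sequences was counted for all called probes. An overlapping probe in the table, on either strand and sharing at least 25 bases with at most 4 differing bases, existed for 82 of them. The next 3 kinds of pair are on the same strand. Where all 60 bases were identical (28 pairs) the differences lay 0.126 apart at most, with a median gap of 0.048. Where 25 to 59 bases were identical (23 pairs) the widest gap was 2.03 and 7 pairs lay over 0.5 apart. Where 1 to 4 bases differed (21 pairs) the widest gap was 3.76 and 3 pairs lay over 0.5 apart. On opposite strands (7 pairs) the widest gap was 1.11, the median gap 0.33, and no pair had both probes called. RGP1, part of a Rab6 exchange factor, was among the second kind, at 1.13 (adjusted p = 0.000667) on the called probe and 0.27 (adjusted p = 0.229) and -0.40 (adjusted p = 0.118) on probes that share 43 and 27 of its bases.

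Of the 402 called probes 223 carried no gene symbol, and the smallest p-values were among them. The first, shown with 3 more by the first 30 bases so that they can be matched elsewhere, read 8.65, 8.83 and 9.05 in Creole and 9.68, 9.96 and 10.06 in Large White. Its arrays did not overlap, and the difference was -1.09 (SE 0.09, adjusted p = 1.43e-09). The next differed by -1.24 (adjusted p = 2.44e-08), the third by -1.95 (adjusted p = 4.33e-06), and the fourth was higher in Creole by 1.39 (adjusted p = 7.97e-06). No part of these is in capitals because none is compared.
A_72_P220612, first 30 bases: ctgtgctaggttccagataggatgactcca
A_72_P352383, first 30 bases: aattaaagcactttattgcacttggcattc
A_72_P354643, first 30 bases: taaagacacagcgctgagacattatggctc
A_72_P028301, first 30 bases: gagctgatgtcgctgtgtcatgtcgtgtgt

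By pathway, few listed genes were called. With 1 probe per gene (that of highest mean), 83 of 9431 genes (0.88%) were called, 38 (0.403%) higher and 45 (0.477%) lower, and 10 of 718 measured genes over 37 lists. All genes had a median difference of -0.01. No gene of fast fibres (18 measured, median 0.02), glycolysis (19, median -0.09), the TCA cycle (26, median -0.01), fatty acid uptake and oxidation (32, median -0.07), adipocyte and lipogenic genes (26, median -0.08) or calcium handling (20, median 0.04) passed. Of the nuclear-encoded complex I subunits NDUFC1 was called among 34 (0.46, adjusted p = 0.0485, lost in 10 of 12 fits without 1 array, adjusted p up to 0.139). The heat shock proteins gave HSPA4 alone among 37 (0.61, adjusted p = 0.0398, lost in 7, adjusted p up to 0.118), with a median of -0.01. Glycogen synthesis and breakdown had no call, with 16 of 20 genes positive and a median of 0.11, and at HS the median was -0.03.

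The IGF axis (20 measured) held 2 genes called lower, IGF2 and IGFBP6, and none higher, with a median of -0.12. The list of genes at known pig breed or trait loci (20 measured) also held 2, KIT and IGF2, with a median of 0.05. Slow fibre genes were negative in 13 of 15, with a median of -0.33 and TPM3 called, against 0.02 for fast fibre genes. At HS the slow fibre median was -0.01.

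Most markers of leukocytes and connective tissue read lower in Creole, without any call. Leukocyte markers were negative for 21 of 22 genes with a median of -0.53 and none called, and connective tissue markers for 14 of 15 with a median of -0.37 and none called. The mean of the leukocyte markers ran from 7.80 to 9.65 in Creole (median 8.85) and from 8.56 to 10.13 in Large White (median 9.38), so the breeds overlapped widely. Without Creole replicate 1 the leukocyte median was -0.24 and the connective tissue median -0.17. At HS they were -0.05 and -0.28. Collagens (3 positive, 13 negative, median -0.30), matrix glycoproteins (6 positive, 16 negative, median -0.26, LAMC1 called at -0.50, adjusted p = 0.0411, lost in 8 of 12 fits without 1 array) and matrix remodelling enzymes (2 positive, 16 negative, median -0.25) were also mostly negative, as were MHC class I and peptide loading genes (3 positive, 12 negative, median -0.30). LAMC1 was called on 1 of 2 probes, and the other differed by 0.06, the opposite way. Interferon-stimulated genes were negative in 26 of 27 with a median of -0.25 and XAF1 called, and positive by median at HS (0.06). Adipocyte markers (5 of 6 negative, median -0.25), MHC class II genes (8 of 9 negative, median -0.14) and blood cell markers (5 of 6 negative, median -0.23) held no call. The median was -0.10 in endothelial markers, with KDR called, and 0.02 in nerve and Schwann cell markers. The part of these cells in the called genes was not tested. With the leukocyte mean as a covariate 560 probes were called, 46.8% of them higher in Creole.

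**Figure D3:**
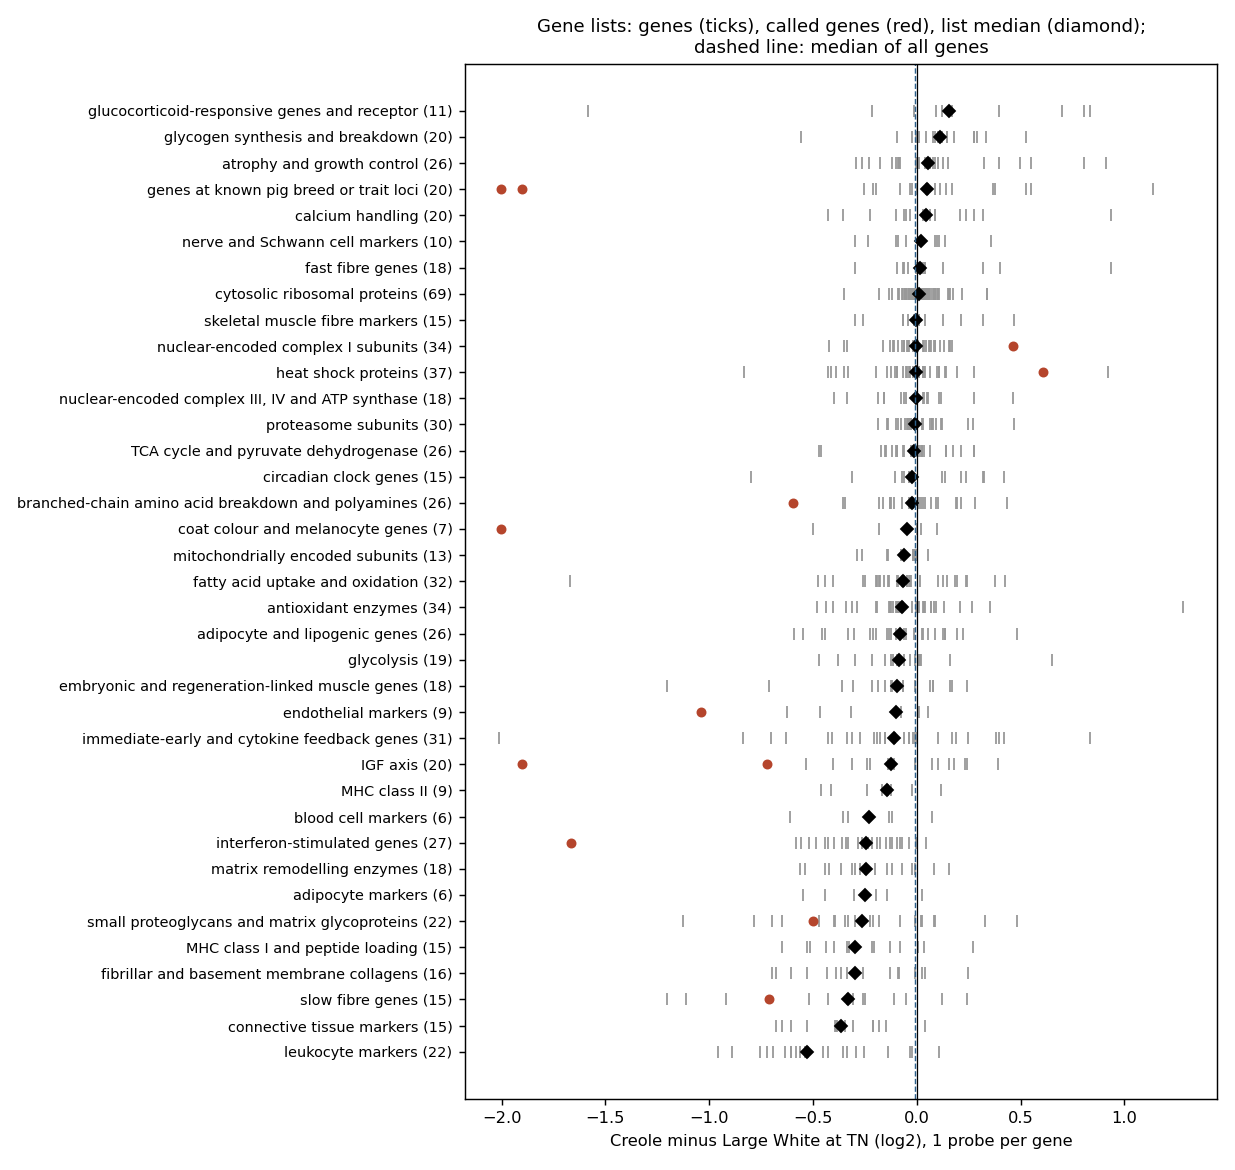
Creole minus Large White at TN (x axis, log2) for the genes of each list (y axis), with a tick per gene, called genes in red, a diamond at the list median and a dashed line at the median of all genes. Leukocyte and connective tissue markers sit left of the dashed line with no called gene.

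The breed difference was measured again in the HS pigs, which were littermates and did not enter the TN means. They did enter the estimate of spread per probe that both contrasts share. Probes called at TN partly for a small spread were thus favoured at HS too, and the overlap below is not from fully separate data. On 115 of 40649 probes (0.283%) Creole and Large White differed at HS. Of the 402 TN calls 69 (17.2%) were called at HS with the same sign and none with the opposite sign, and 393 (97.8%) had the same sign against 62.6% of all probes. At HS the groups did not overlap for 81 of the 402, against 0.706% of all probes. An unadjusted limma p below 0.05 with the same sign was found for 262 of the 402 (65.2%). Of all probes, 7.27% had such a p at HS, with either sign. The HS difference was smaller than the TN difference for 363, with a median ratio of 0.59, though these probes were picked for their TN size. KIT (-1.82, adjusted p = 0.000189), OAZ3 (-1.82, adjusted p = 0.0286), SELENOF (3.56, adjusted p = 0.00126), USF1 (1.38, adjusted p = 0.000901), RGP1 (1.19, adjusted p = 0.000495), DUSP12 (1.11, adjusted p = 0.00285), SLCO2B1 (-1.12, adjusted p = 0.00671), PARVB (-1.07, adjusted p = 0.0108), DCPS (-1.35, adjusted p = 0.0287), PNPLA4 (-1.08, adjusted p = 0.0285) and CCDC25 (1.12, adjusted p = 0.0345) were called in both. On OAZ3 the breeds overlapped at HS. Large White replicate 6 read 5.32 and the other Large White arrays 7.30 to 7.70, against 5.16 to 5.51 in Creole. IGF2 (-1.51, adjusted p = 0.215), XAF1 (-1.18, adjusted p = 0.124), CLDN12 (-0.84, adjusted p = 0.368), LUM (1.23, adjusted p = 0.318), P2RX5 (0.52, adjusted p = 0.254) and FBXO32 (0.48, adjusted p = 0.766) were not called at HS.

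**Figure D4:**
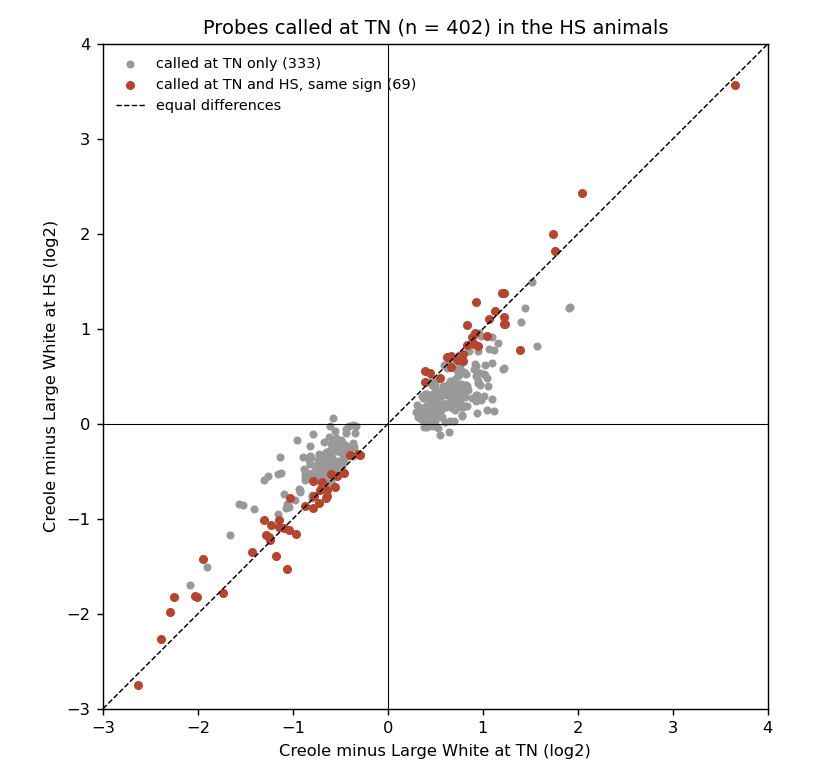
Creole minus Large White in the HS pigs (y axis, log2) against the same difference at TN (x axis, log2) for the 402 probes called at TN. A total of 393 probes have the same sign in both, and 69 are called in both.

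Whether the breed difference itself changed with temperature was tested as an interaction over all probes. No probe passed in limma (smallest adjusted p = 1), while 1214 (2.99%) had an unadjusted p below 0.05. A p that misses the threshold does not show that the differences are equal. The median SE of a TN difference was 0.13, and the interaction was less precise, with an SE of 0.364 against 0.258 at TN for KIT.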

How the data were processed

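Muscle RNA of 35 pigs was labelled in 1 colour and hybridised to Agilent porcine arrays. Feature Extraction 10.10.1.1 gave the intensities in the deposited scanner files. The deposited value table holds log2 values of 40649 probes that the authors filtered for expression and quantile-normalised. Each table column correlated best with its own array (lowest r 0.9988, across probes). A symbol was found for 20097 probes (49.4%) and 9431 genes, from the files' names and accessions and the reference gene tables. No genome was used, so no position is given.

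A mean per group was estimated over 35 arrays by limma (version 3.58.1, R 4.3.3), using Benjamini-Hochberg adjustment over all probes at 0.05. The precision is limited by 6 arrays a group. In simulated arrays, 89.5% of 200 probes changed by 1 log2 were recovered in Creole minus Large White, with 10 false calls over 40649 probes. The effect of shared litters or pens on recovery and false calls was not tested. Named genes are the 15 largest called differences in each direction, called genes of the lists and a panel of 19 genes read by the probe of highest mean. Members, lists and panel were chosen with earlier results of these data known. Alternatives were other scalings, filters, covariates, sample sets and leaving out each array. Replicate numbers follow the order of deposition.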

Additional observations from a re-analysis of the deposited data

Results flagged for a closer look

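In 16 of 126 sets of 6 arrays checked, over the named genes, marker means and array measures, the highest or lowest array stood apart, its gap to the nearest array divided by the group's range exceeding Dixon's critical value. Chance gives about 1 in 20 such sets. In Creole, replicate 1 stood apart for 6 measures. It was lowest for the connective tissue marker mean (10.46 against 11.39, ratio 0.73), DPM1 (10.29 against 11.74, ratio 0.814), DUSP12 (9.19 against 10.11, ratio 0.785), IGF1 (9.01 against 9.38, ratio 0.638) and PDK4 (10.23 against 13.27, ratio 0.642). It was highest for PARVB (8.03 against 7.30, ratio 0.658). Creole replicate 6 was highest for IGF2 (17.75 against 15.34, ratio 0.828), replicate 3 lowest for the blood cell marker mean (7.38 against 7.70, ratio 0.666) and replicate 4 highest for the nerve marker mean (9.02 against 8.72, ratio 0.634).

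In Large White, replicate 3 was lowest for the share of probes well above background (58.4% against 67.4%, ratio 0.675) and the connective tissue marker mean (11.45 against 11.74, ratio 0.637). Replicate 1 was highest for the endothelial marker mean (10.81 against 10.36, ratio 0.67) and PHF2 (9.42 against 8.36, ratio 0.896), and lowest for GHRL (6.0 against 6.99, ratio 0.642). Replicate 5 was highest for DCPS (10.44 against 10.16, ratio 0.751) and MSTN (8.54 against 8.12, ratio 0.668).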

How the results depend on the processing

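The 402 calls became 115 with 12 arrays, 213 with the 18 TN arrays, 1508 with breed and temperature additive, 140 under spike-in scaling and 69 of 9431 with 1 probe per gene, whose adjustment covers fewer tests. Leaving out 1 array gave 191 (without Creole replicate 1) to 574 (without Large White replicate 3), with 201, 264, 252 and 243 without Large White replicates 1, 2, 4 and 6. The other alternatives gave 316 to 560. The 69 calls shared with HS became 108 with array weights and 14 with 1 probe per gene, and 59 to 72 without 1 array. The interaction gave 0 calls in every alternative that gives it, and the 12-array, 18-array and additive fits give none. Over 36 called probes of the named genes, 761 of 955 values kept their call, 194 lost it and 0 changed sign, and 14 probes were called in all. Of the uncalled genes, MC1R changed sign with normexp (-0.020), median scaling (-0.013), slide block (-0.021), array weights (-0.015), brightness (-0.007) and leukocyte mean (-0.017), and ran from -0.047 to 0.073 without 1 array. RYR1 did in the additive model (-0.083), with array weights (-0.019) and leukocyte mean (-0.044), and ran from -0.027 to 0.091. MYH4 did under 75th percentile scaling (0.059) and spike-in scaling (0.021), PDK4 with array weights (0.244, and -1.099 to 0.205 without 1 array), FASN with the leukocyte mean (0.045, and -0.146 to 0.073), the SELENOF probe of highest mean with the leukocyte mean (0.039) and ADIPOQ without 1 array (-0.28 to 0.030). The causes were not tested. No paired analysis was possible because the replicate numbers name arrays in order of deposition and pair nothing.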

Other observations

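A further 11 genes had at least 2 called probe sequences and had not been named by the rule for named genes, and they were chosen after their values were seen. SGMS1, which makes sphingomyelin in the Golgi, read 10.16, 10.36 and 10.74 (lowest, median and highest array) in Creole and 9.07, 9.66 and 10.08 in Large White. Its arrays did not overlap between the breeds, and the difference of 0.80 (SE 0.16, limma adjusted p = 0.0101) was called on 2 of 5 probes, 1 of the others having the opposite sign (-0.03). The call held without each array in turn but not in the fit of 12 arrays (adjusted p = 0.0578). WDR3, a factor of small ribosomal subunit assembly, was higher by 0.91 (SE 0.18, adjusted p = 0.00976) without overlap, called on 2 of 5 probes, while the other 3 had the opposite sign, down to -0.30. Its call too held without each array in turn and was lost with 12 arrays (adjusted p = 0.0564), and the difference at HS was 0.84 (adjusted p = 0.0301). None of the 11 was called in the fit of 12 arrays (adjusted p 0.0564 to 0.207).

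The signalosome subunit COPS4 (0.71, adjusted p = 0.0240), the influenza NS1-binding protein gene IVNS1ABP (0.76, adjusted p = 0.0169) and the kinase MAP3K3 (0.41, adjusted p = 0.0230) were higher in Creole but lost their call without Creole replicate 1 and without Large White replicate 1, and COPS4 also without Large White replicate 4. PHF3 (0.38, adjusted p = 0.0244) and RIMKLB (0.53, adjusted p = 0.0352) were higher and lost theirs in 4 and 9 of 12 such fits.

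Lower in Creole were DKK3, a secreted relative of the Wnt inhibitors (-0.70, adjusted p = 0.0174, lost without Creole replicate 1 and without Large White replicate 1), CPNE3 (-0.70, adjusted p = 0.0307, lost in 6 of 12), the nucleotide precursor enzyme PRPS2 (-0.64, adjusted p = 0.0209, lost in 5 of 12) and P4HA1, the collagen prolyl hydroxylase subunit (-0.55, adjusted p = 0.0356, lost in 7 of 12). P4HA1 was called on 2 of 9 probes.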
